A study of Mus musculus with 107 samples.

Results

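Glycolysis and hypoxia genes were followed in ear skin of mice, 24 h after the blistering and DNA-alkylating agent sulfur mustard had been applied. The list held 34 genes: glucose and lactate transporters, the enzymes of glycolysis, and targets and oxygen sensors of the hypoxia pathway. It was chosen by gene symbol, and each gene was read by 1 probe set, the one with the highest mean signal of those annotated to that gene alone. Such a probe set existed for 32 of the 34 genes, of 18193 genes so represented on the arrays; Gpi1 and Eno1 had none. The chosen probe set lay on array A for 30 genes and on array B for 2 (Adm and Pfkfb4). Eno2 was too dim to test, a mean scaled signal of at least 100 being required, which left 31 genes, 29 on array A and 2 on array B.

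RNA from 8 mm ear biopsies was hybridized to a pair of Affymetrix arrays, called A and B. Pretreated animals received a drug dissolved in ethanol on the right ear 15 min before 0.08 mg of sulfur mustard in 5 µL of methylene chloride. The drug was dimercaprol, a dithiol chelator (6.25 mg, 6 ears), indomethacin, a cyclooxygenase inhibitor (1.34 mg, 6 ears), or octylhomovanillamide, a capsaicin analog (0.6 mg by the treatment label and 0.585 mg by the protocol, 5 ears). Other animals received the same dose of mustard with no pretreatment (5 right ears, "mustard ears"). The control was the left ear given methylene chloride alone (21 ears). Animals of another number series, none of them given mustard, were measured on array A alone: dimercaprol (4 ears), indomethacin (4 ears) or octylhomovanillamide (5 ears) alone at the same doses, ethanol (3 ears) and untreated naive skin (5 ears of 3 animals). Strain and age are not given in the sources used here. No group given ethanol and then mustard was analysed here, so that a drug and its ethanol cannot be told apart in the pretreated ears.

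Glycolysis splits glucose to pyruvate. When oxygen is short, or when cells grow and migrate quickly, pyruvate is reduced to lactate and exported. Oxygen-dependent prolyl hydroxylases (the Egln proteins) mark the transcription factor HIF-1α for destruction. In hypoxia it escapes and binds hypoxia response elements, whose core is often ACGTG. They lie near genes for glucose uptake, glycolysis, blood vessel growth and pH control. In skin, HIF-1α is active in epidermis, which is poorly supplied with oxygen, and in healing wounds.

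The letters ACGTG were searched on both strands of RefSeq promoter windows running from 250 bases before to 50 bases after each annotated start (build GRCm38.p6). Of the 34 genes, 32 had an entry, and 22 of these (68.8%) held the letters in at least 1 promoter, against 21.8% of 27025 genes. By promoter it was 25 of 46 (54.3%), against 19.6% of 32851. The 6-letter palindrome CACGTG, which holds the searched letters on both strands and also binds other factors, was in 7.15% of all promoters. Among genes with an entry the letters were found for 9 of the 10 that rose in mustard ears, 4 of the 6 that fell and 9 of the 13 tested genes that did neither. Stretches around the matches are printed for 5 genes that rose and then for 3 that fell, 5′ to 3′ on the strand of the gene. Capitals mark ACGTG, its reverse complement CACGT, or CACGTG. Bases are counted back from the annotated start. For Vegfa and Ldha a further annotated promoter window held no match. Read in frame from its first base, the Vegfa stretch gives codons of the Vegfa protein. The annotated start behind it thus lies inside the gene, and Vegfa is counted among the 9 through this window. A match describes these letters and shows no bound factor. Other forms of the core were not searched.
Ldha, chr7:46845639-46845794, plus strand, bases -165 to -10: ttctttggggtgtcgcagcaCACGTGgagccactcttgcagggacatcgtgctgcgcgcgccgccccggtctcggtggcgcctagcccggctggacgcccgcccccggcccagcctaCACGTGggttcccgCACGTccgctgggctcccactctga
Pgk1, chrX:106186930-106186993, plus strand, bases -170 to -107: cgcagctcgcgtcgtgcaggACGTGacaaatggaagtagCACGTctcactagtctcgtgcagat
Pgam1, chr19:41911737-41911781, plus strand, bases -134 to -90: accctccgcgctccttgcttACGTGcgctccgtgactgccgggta
Vegfa, chr17:46025350-46025394, minus strand, bases -231 to -187: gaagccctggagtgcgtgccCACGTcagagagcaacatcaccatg
Hif1a, chr12:73907712-73907821, plus strand, bases -155 to -46: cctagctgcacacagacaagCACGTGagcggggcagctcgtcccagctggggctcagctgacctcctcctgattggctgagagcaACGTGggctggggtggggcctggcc
Egln1, chr8:124949298-124949342, minus strand, bases -88 to -44: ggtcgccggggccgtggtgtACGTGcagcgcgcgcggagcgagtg
Egln3, chr12:54204079-54204123, minus strand, bases -249 to -205: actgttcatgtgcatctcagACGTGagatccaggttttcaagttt
Bnip3, chr7:138909589-138909634, minus strand, bases -128 to -83: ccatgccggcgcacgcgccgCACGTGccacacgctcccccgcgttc

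Signals below are deposited intensities, multiplied by 1 factor per array so that all arrays had a trimmed mean of 500. The unscaled trimmed means were 66.9 to 137 on mustard array A arrays, against 111 to 222 on methylene chloride arrays. The mustard ears of animals 5 and 37 were the dimmest of the 5 (86.3 and 66.9). Their 3′ over 5′ Gapdh signal ratio, a sign of RNA quality, was on the log2 scale 0.63 and 0.78, against -0.05 to 0.08 in the other mustard ears, so that results were also computed without them. All 10 epidermis marker genes read on array A, keratins among them, had a mean scaled signal above 100. A difference is on the log2 scale of scaled signal plus 16, with its standard error (SE) from limma, and a gene rose or fell where the Benjamini-Hochberg adjusted p over all probe sets tested on its array was under 0.05. The p-values rest on the spread between ears within groups, with 1 estimate per probe set shared by all groups of a model. Unless pairing or a block is named, left and right ears of 1 animal entered as independent, and naive ears were averaged per animal. Counts at an unadjusted p are given for the listed genes alone. The share of all probe sets at that level was not computed. In a biopsy of mixed cells, fewer cells of a type and less RNA per cell cannot be told apart.

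The comparison of mustard with methylene chloride ears addresses the response of skin to the agent. After scaling, without which 9 of the 11 risen genes had differences below 0, lactate dehydrogenase Ldha, 4 further glycolytic enzymes, the angiogenic factor Vegfa, the vasodilator peptide Adm and Hif1a itself were higher in mustard ears by 0.33 to 0.96 on the log2 scale, while both prolyl hydroxylases, Pdk1, Bnip3 and Aldoc were lower. On array A, 10 of 29 genes rose and 6 fell. Over all array A probe sets 19.2% rose and 23.7% fell. The median difference was 0.20 for the 29 genes and -0.01 for all probe sets. On array B, Adm rose and Pfkfb4 did not pass, beside 12.9% of all probe sets that rose and 13.2% that fell. When the arrays were not rescaled, the array A probe sets had a median of -0.52, and those 9 genes, all the risen ones but Vegfa and Adm, lay above that median.

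Vegfa, the main growth factor for blood vessels, gave signals of 337, 405, 325, 216 and 407 in the mustard ears of animals 1, 3, 5, 36 and 37, against a lowest, median and highest of 110, 191 and 272 in methylene chloride ears. The ears of animals 1, 3, 5 and 37 lay above every methylene chloride ear and that of animal 36 within their range. The difference was 0.74 ± 0.17 (SE; 5 and 21 ears; limma adjusted p = 0.000385). Its other tested probe set gave 0.67 (adjusted p = 0.0323).

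Adm, adrenomedullin, is a peptide that widens vessels. It gave 1807, 1709, 1903, 907 and 1732 on array B in the mustard ears of the same animals in the same order, against 305, 858 and 1296 (lowest, median, highest) in methylene chloride ears. Again 4 ears lay above all methylene chloride ears and the ear of animal 36 did not. The difference of 0.96 ± 0.23 (adjusted p = 0.00134) was the largest rise among the 31 genes.

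Car9, a cell-surface carbonic anhydrase that disposes of acid, gave 158, 169, 209, 134 and 305 in mustard ears, against 66.1, 133 and 193 in methylene chloride ears. Only the ears of animals 5 and 37 stood above the methylene chloride range. The difference was 0.54 ± 0.18 (adjusted p = 0.014), and it was 0.31 and not past the threshold without those 2 ears. P4ha1, a subunit of the enzyme that hydroxylates collagen prolines, lay between 220 and 322 in mustard ears and between 104 and 356 in methylene chloride ears. It rose by 0.49 ± 0.17 (adjusted p = 0.0156), but its second probe set gave 0.11 (adjusted p = 0.547).

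Hif1a encodes the oxygen-regulated subunit of HIF-1. Its signal was 3069, 2977, 3191, 1848 and 2474 in mustard ears, against 1313, 1917 and 2332 in methylene chloride ears, and 4 mustard ears were above the whole methylene chloride range. The difference was 0.48 ± 0.11 (adjusted p = 0.000347). The other Hif1a probe sets gave 0.24 and 0.22 and did not pass (adjusted p = 0.0558 and 0.377).

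Egln1, the prolyl hydroxylase known as PHD2, fell. Its signal was 715, 501, 541, 788 and 581 in mustard ears, against 766, 1138 and 1517 in methylene chloride ears. All but the ear of animal 36 were below every methylene chloride ear. The difference was -0.85 ± 0.13 (adjusted p = 6.8e-07), whereas the second Egln1 probe set gave -0.12 (adjusted p = 0.601).

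Egln3 (PHD3) gave 808, 785, 600, 666 and 697 in mustard ears, against 567, 1032 and 1695 in methylene chloride ears, so that all mustard ears lay inside the lower part of the control range. It fell by 0.57 on the log2 scale (SE 0.16, adjusted p = 0.00317). The second Egln3 probe set gave -0.73 (adjusted p = 0.00705).

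Glucose enters cells through Slc2a1 and Slc2a3 (GLUT1 and GLUT3) and is trapped by hexokinases. Slc2a3 gave 215, 188, 225, 134 and 265 in mustard ears, against 57.0, 135 and 203 in methylene chloride ears. It was higher by 0.53 ± 0.16 (adjusted p = 0.00591), with 3 mustard ears above all methylene chloride ears, and its other probe set gave 0.26 (adjusted p = 0.305). Slc2a1 differed by -0.05 ± 0.12 (adjusted p = 0.768).

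Hk2, the inducible hexokinase, gave 1054, 1293, 1780, 1188 and 1285 in mustard ears, against 775, 1009 and 1388 in methylene chloride ears. The ear of animal 5 alone was above that range. The difference was 0.33 ± 0.12 (adjusted p = 0.0233), and it did not pass when the mustard ear of animal 5 or 37 was left out. Hk1, the hexokinase of most tissues, differed by -0.15 ± 0.10 (adjusted p = 0.225), while another probe set of Hk1 gave -0.97 (adjusted p = 6.91e-05).

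Phosphofructokinase is the committed step, and its 3 genes did not rise. Pfkp, the platelet form, fell by 0.24 (SE 0.08, adjusted p = 0.0124), with 528 to 787 in mustard ears and 659 to 882 in methylene chloride ears. Its other probe sets gave -0.12 on array A and 0.26 on array B (adjusted p = 0.718 and 0.252). Pfkl, the liver form, differed by 0.23 ± 0.11 and Pfkm, the muscle form, by -0.08 ± 0.28, and neither passed. Pfkfb3 and Pfkfb4, which make the activator fructose 2,6-bisphosphate, differed by 0.20 ± 0.16 and 0.13 ± 0.09 and did not pass.

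Aldolase splits the 6-carbon sugar, and its 2 genes on the list differed from each other. Aldoc, the brain form, gave 376, 447, 465, 561 and 497 in mustard ears, against 546, 693 and 831 in methylene chloride ears. It was lower by -0.53 ± 0.08 (adjusted p = 1.45e-06), and only the ear of animal 36 reached the methylene chloride range. The chosen probe set of Aldoa, the ubiquitous and muscle form, gave 0.23 ± 0.13 (adjusted p = 0.153), and 1 of its 3 other array A probe sets rose by 0.51 (adjusted p = 0.0122).

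Pgk1, phosphoglycerate kinase, the first step that yields ATP, gave 6680, 8741, 13005, 6759 and 10498 in mustard ears, against 4806, 6337 and 7957 in methylene chloride ears. The ears of animals 3, 5 and 37 were above that range. The difference was 0.46 ± 0.11 (adjusted p = 0.00101), and it was 0.19 (adjusted p = 0.29) without the ears of animals 5 and 37.

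Pgam1, phosphoglycerate mutase, gave 2463, 2053, 1802, 1287 and 1593 in mustard ears, against 974, 1305 and 1658 in methylene chloride ears. The ears of animals 1, 3 and 5 were above that range. The difference was 0.47 ± 0.10 (adjusted p = 0.000157). Pkm, pyruvate kinase of muscle and of growing cells, gave 4434, 5392, 6019, 3982 and 5796, against 2203, 3471 and 4278. Here 4 mustard ears were above all methylene chloride ears, and the difference was 0.59 ± 0.13 (adjusted p = 0.000197). Tpi1, triose phosphate isomerase, differed by 0.20 ± 0.11 (adjusted p = 0.134).

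Ldha, which turns pyruvate to lactate, gave 7349, 7084, 9471, 6505 and 6588 in mustard ears, against 4349, 5612 and 6562 in methylene chloride ears. Every mustard ear but that of animal 36 lay above the methylene chloride range. The difference was 0.46 ± 0.09 (adjusted p = 0.000116). Its counterpart Ldhb, which favours lactate use, differed by -0.10 ± 0.13, and the lactate exporters Slc16a3 and Slc16a1 by 0.49 ± 0.25 and 0.00 ± 0.13, with no adjusted p under the threshold.

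Pdk1 encodes a kinase that holds back the oxidation of pyruvate in mitochondria and is a textbook HIF-1 target. It gave 309, 262, 138, 547 and 291 in mustard ears, against 296, 623 and 1091 in methylene chloride ears. The ears of animals 3, 5 and 37 were below every methylene chloride ear. The difference was -0.92 ± 0.24 (adjusted p = 0.00202), and 3 further probe sets of Pdk1 gave -1.90, -0.90 and -0.57 (adjusted p = 8.43e-05, 2.45e-07 and 0.12).

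Bnip3, a mitophagy receptor induced by hypoxia in many cells, gave 741, 1092, 1434, 1203 and 1031 in mustard ears, against 1231, 1500 and 2536 in methylene chloride ears. All but the ear of animal 5 were below that range, and the difference was -0.54 ± 0.16 (adjusted p = 0.00535). Ndrg1, a stress-induced differentiation gene, differed by -0.07 ± 0.14 on the chosen probe set, and 1 of its 4 others fell by 0.83 (adjusted p = 0.00161). Ddit4, an inhibitor of mTOR signalling, differed by 0.49 ± 0.22 (adjusted p = 0.0671) and P4ha2, the sister gene of P4ha1, by -0.31 ± 0.18 (adjusted p = 0.161).

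The mustard ear of animal 36 was the lowest of the 5 for 8 of the 11 genes that rose and the highest for 4 of the 6 that fell.

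**Figure D1:**
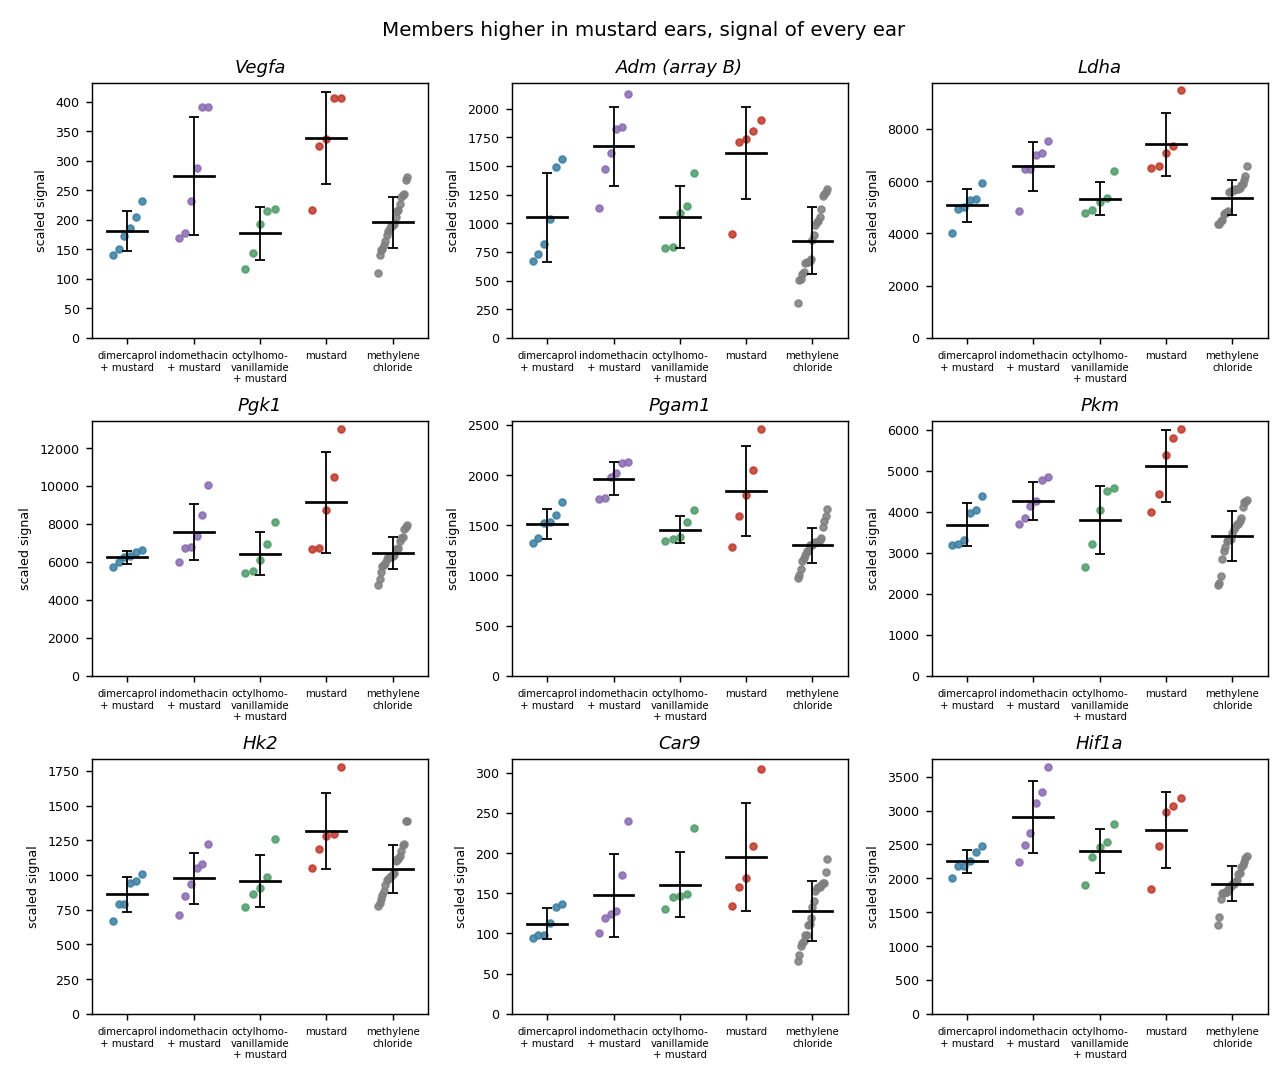
Scaled signal (vertical axis, linear, from 0) of 9 genes that were higher in mustard ears after scaling, with 1 point per ear, the group mean as a horizontal line and the SD as an error bar, for the pretreated, mustard and methylene chloride groups. For Vegfa, Adm, Ldha, Pkm and Hif1a 4 of 5 mustard ears lie above all 21 methylene chloride ears; without rescaling all of these genes but Vegfa and Adm had differences below 0.

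**Figure D2:**
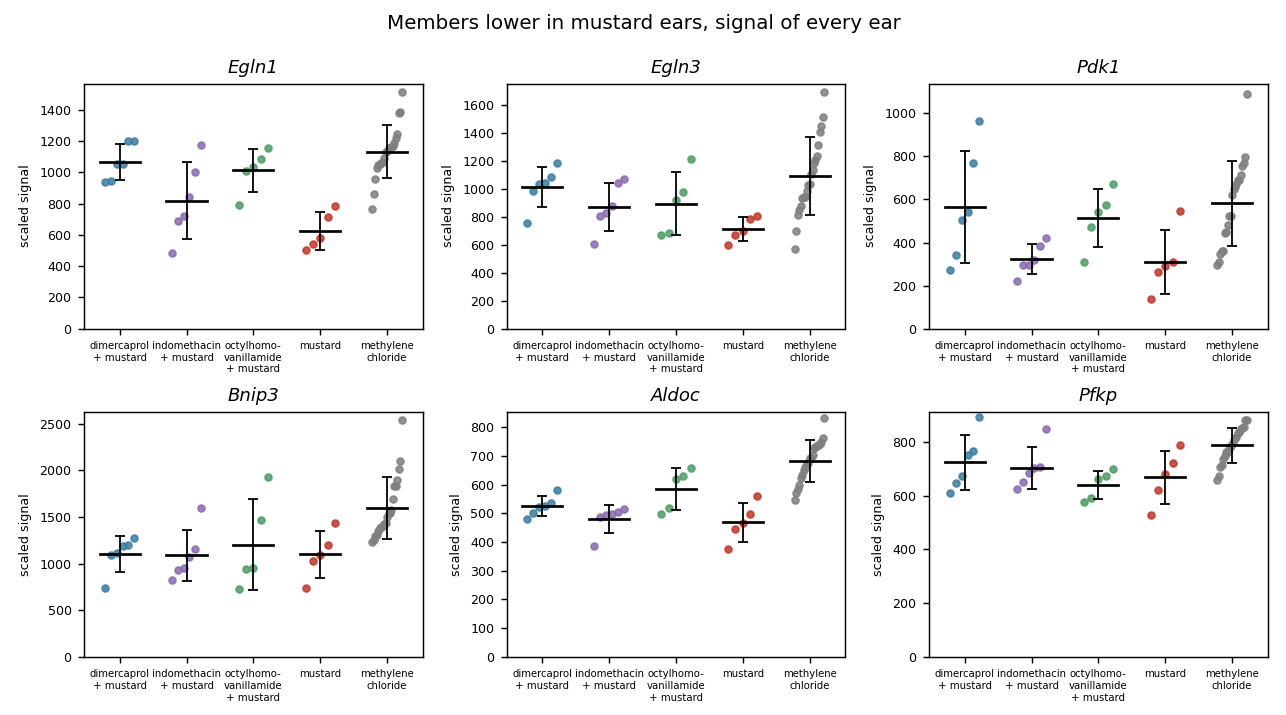
Scaled signal (vertical axis, linear, from 0) of the 6 genes that were lower in mustard ears, with 1 point per ear, the group mean as a horizontal line and the SD as an error bar. For Egln1, 4 of 5 mustard ears lie below all 21 methylene chloride ears, and all 6 dimercaprol ears lie above the mustard ears.

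The 17 calls against methylene chloride depended on which ears entered. Without the mustard ears of animals 5 and 37, 10 genes passed (7 rose, 3 fell), and 9 of the 17 calls remained: Adm, Aldoc, Bnip3, Egln1, Hif1a, Ldha, Pgam1, Pkm and Vegfa. Over all array A probe sets the count was 3951 without those ears and 4457 with brightness as a covariate, against 6832. No such count is available here for the fits named next with paired ears, a random block or the Gapdh ratio. With left and right ears of the same animal paired in complete pairs (4 mustard pairs), the count was also 10 (7 rose, 3 fell); Ldha then gave 0.21 (adjusted p = 0.226) and was higher in the right ear of 4 of 4 animals. With the animal as a random block it stayed at 17, and it was 9 with the Gapdh ratio and 10 with array brightness as a covariate. Leaving out 1 mustard ear ended the calls of Bnip3 (animal 1), Car9 (37), Hk2 (5 or 37), P4ha1 (1 or 5) and Pfkp (3). With brightness as a covariate the calls of Adm, Car9, Hk2, P4ha1, Pgk1, Slc2a3 and Vegfa were lost. Aldoc, Pgam1 and Pkm kept their calls in each of the other settings applied to scaled values and without each mustard ear in turn, but the setting that reads a second probe set could not change them, since none of these 3 genes has another probe set past the filter.

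The rest of the pathway was described with lists of further genes. Of 44 other genes of glucose use measured, 36 were read on array A and the others on array B. In mustard ears 3 rose and 11 fell, beside 19.2% and 23.7% of all array A probe sets and 12.9% and 13.2% on array B. Risers were Adpgk, an ADP-dependent glucokinase (0.67 ± 0.15, adjusted p = 0.000349), Pgm2 (0.41 ± 0.11) and the mitochondrial malic enzyme Me2 (0.50 ± 0.16). The falls with the smallest p were the kinase Pdk3 (-0.78 ± 0.12), cytosolic malic enzyme Me1 (-0.92 ± 0.14), glycogen phosphorylase Pygl (-0.61 ± 0.13) and pyruvate carboxylase Pcx (-0.45 ± 0.12).

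Of 44 other hypoxia-response genes, 40 were read on array A and the others on array B. Of the 44, 13 rose and 9 fell, beside the same 19.2% and 23.7% on array A and 12.9% and 13.2% on array B. Angptl4, a lipoprotein lipase inhibitor, was higher by 1.77 ± 0.25 (adjusted p = 2.13e-07), the collagen lysyl hydroxylase Plod2 by 1.40 ± 0.18, Fam162a, a mitochondrial protein, by 1.04 ± 0.12 and Tes, a focal adhesion protein, by 0.75 ± 0.12. Lower were Zfp395 (-1.63 ± 0.32), the Myc antagonist Mxi1 (-1.05 ± 0.12, adjusted p = 5.63e-09), the sterol regulator Insig2 (-0.60 ± 0.10) and the histone demethylase Kdm4b (-0.48 ± 0.13).

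Markers of several other cell types moved with mustard as well, beside 19.2% of all array A probe sets that rose and 23.7% that fell. For the lists named first only signals are given, and their sums overlapped. Sums of macrophage and adipocyte genes, given below, overlapped as well. Epidermis genes gave 114793 to 143573 in mustard ears and 100961 to 140040 in methylene chloride ears, with mean log2 signals of 13.05 and 13.18. Fibroblast and collagen genes gave 30006 to 42840 in mustard ears and 23661 to 64093 in methylene chloride ears. Cartilage genes gave 2215 to 3863 and 2294 to 8967, and endothelium genes 1028 to 1567 and 871 to 2081. All 15 wound keratinocyte genes measured rose, with summed signals of 34339 to 183318 in mustard ears, against 6579 to 16637 in methylene chloride ears. Of 10 neutrophil genes measured 6 rose and 1 fell, with sums of 7137 to 44535 in mustard ears and 2388 to 4956 in methylene chloride ears. The defining neutrophil genes Camp, Cd177 and Cxcr2 had mean signals under 100. Of 9 macrophage genes 5 rose, with sums of 4080 to 8469 in mustard ears and 3586 to 6811 in methylene chloride ears, and Itgam was under 100. Of 4 adipocyte genes 2 fell (median difference -0.86), with sums of 1502 to 5268 in mustard ears and 1784 to 8366 in methylene chloride ears. Of 2 red blood cell genes 1 rose, with sums of 487 to 985 in mustard ears and 206 to 447 in methylene chloride ears. The part of these cells in the changes of the glycolysis and hypoxia genes was not tested.

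Pretreated ears were next set against mustard ears, to ask whether a drug altered the response. These comparisons use the same 5 mustard ears as the comparison above. With dimercaprol, after scaling, 3 of 29 array A genes were higher and 7 lower than in mustard ears, beside 15.8% and 11.1% of all probe sets. Neither array B gene passed (9.37% rose and 7.11% fell over the array), although both had an unadjusted limma p under 0.05. The median difference was -0.20 for the 29 genes and 0.00 for all array A probe sets.

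Ldha gave a lowest, median and highest of 4018, 5135 and 5932 in dimercaprol ears, all below the 5 mustard ears (6505 to 9471). The difference was -0.54 ± 0.11 (6 and 5 ears; adjusted p = 0.000546). Pgk1 (5758, 6267 and 6651) was likewise below all mustard ears (6680 to 13005), with -0.50 ± 0.14 (adjusted p = 0.00575). Hk2 (671, 868 and 1006) was too, against 1054 to 1780, with -0.60 ± 0.15 (adjusted p = 0.00206).

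Vegfa gave 140, 179 and 231 in dimercaprol ears, against 216 to 407 in mustard ears, and only the mustard ear of animal 36 overlapped. The difference was -0.84 ± 0.20 (adjusted p = 0.00195). Pkm (-0.47 ± 0.15), P4ha1 (-0.53 ± 0.20) and Car9 (-0.68 ± 0.22) were also lower, at adjusted p = 0.02, 0.047 and 0.0199. Adm differed by -0.64 ± 0.28 and did not pass (adjusted p = 0.108).

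Egln1 gave 939, 1055 and 1204 in dimercaprol ears, all above the mustard ears (501 to 788), a difference of 0.77 ± 0.15 (adjusted p = 0.000265). Its second probe set gave -0.24. Pdk1 and Egln3 were higher by 0.83 ± 0.30 (adjusted p = 0.0308) and 0.50 ± 0.19 (adjusted p = 0.0487). Without the mustard ears of animals 5 and 37, 3 of the 10 calls remained, those of Egln1, Ldha and Vegfa, and 5 genes were called without the ear of animal 37 alone. Dimercaprol arrays were brighter than mustard arrays, with trimmed means of 150 to 268 against 66.9 to 137. With brightness as a covariate none of the 10 calls remained (adjusted p = 0.101 for Egln1 and 0.131 for Ldha), and 4 genes were called with the Gapdh ratio as one. Over all array A probe sets the count was 1391 without the ears of animals 5 and 37 and 329 with brightness, against 4284. Leaving out each of the 11 ears in turn ended the call of Egln3 in 8 cases, P4ha1 in 8, Pdk1 in 6, Pkm in 4 and Car9 in 1 (without mustard animal 37), and those of Egln1, Hk2, Ldha, Pgk1 and Vegfa in none. Without rescaling, when the median of all probe sets was 0.77, the 7 genes that were lower all had differences above 0.

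Other cell markers moved with dimercaprol too, beside 11.1% of all array A probe sets that fell. Of the wound keratinocyte genes 14 of 15 fell, with sums of 12626 to 65098 in dimercaprol ears and 34339 to 183318 in mustard ears. Of the neutrophil genes 6 of 10 fell (2634 to 19792 in dimercaprol ears, 7137 to 44535 in mustard ears), and of the macrophage genes 4 of 9 (2919 to 5291, against 4080 to 8469). Of 2 red blood cell genes 1 fell, with sums of 303 to 400 in dimercaprol ears and 487 to 985 in mustard ears. Their part in these differences was not tested.

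With octylhomovanillamide, after scaling, 2 array A genes were higher and 5 lower than in mustard ears, beside 10.6% and 6.54% of all probe sets. Ldha gave 6391, 4908, 5355, 4789 and 5179 in the ears of animals 27, 28, 29, 30 and 33, all below the mustard ears (6505 to 9471). The difference was -0.47 ± 0.12 (5 and 5 ears; adjusted p = 0.00667). Vegfa gave 116, 192, 217, 144 and 215, against 216 to 407 in mustard ears, with an overlap of 1 ear on each side and a difference of -0.88 ± 0.21 (adjusted p = 0.00451).

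Pgk1 (-0.47 ± 0.14), Hk2 (-0.46 ± 0.15) and Pkm (-0.44 ± 0.16) were lower in octylhomovanillamide ears at adjusted p = 0.0197, 0.0343 and 0.0493. Egln1 gave 1012, 1084, 789, 1153 and 1036, all above the mustard ears although the lowest stood next to their highest, 788. The difference was 0.69 ± 0.16 (adjusted p = 0.00318). Aldoc was higher by 0.31 ± 0.10 (adjusted p = 0.0336). No call remained without the mustard ears of animals 5 and 37 (adjusted p = 0.0993 for Vegfa, 0.1 for Egln1 and 0.114 for Ldha), with brightness or with the Gapdh ratio as a covariate. Over all array A probe sets the count was 46 without those ears and 19 with brightness, against 2727. Leaving out 1 ear left 3 genes called without mustard animal 5 or 37 or octylhomovanillamide animal 28, and 4 without mustard animal 3 or octylhomovanillamide animal 30. Without rescaling, when the median of all probe sets was 0.63, the 4 glycolytic genes that were lower had differences above 0. Beside 6.54% of all array A probe sets that fell, 10 of 15 wound keratinocyte genes fell. Sums of these genes were 19891 to 99926 in octylhomovanillamide ears and 34339 to 183318 in mustard ears. Of the neutrophil genes 6 of 10 fell (3859 to 22605, against 7137 to 44535 in mustard ears), of the macrophage genes 3 of 9 (3635 to 7283, against 4080 to 8469) and of the red blood cell genes 1 of 2 (301 to 389, against 487 to 985). Their part was not tested here either.

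With indomethacin, limma called 0 of 29 array A genes against mustard ears, beside 1.21% of array A probe sets that rose and 0.659% that fell. At an unadjusted p under 0.05, 1 array A gene was higher and 2 lower. Differences ran from -0.43 ± 0.15 for Hk2 to 0.35 ± 0.15 for Egln1. For Ldha the difference was -0.17 ± 0.11 and for Vegfa -0.33 ± 0.20.

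**Figure D3:**
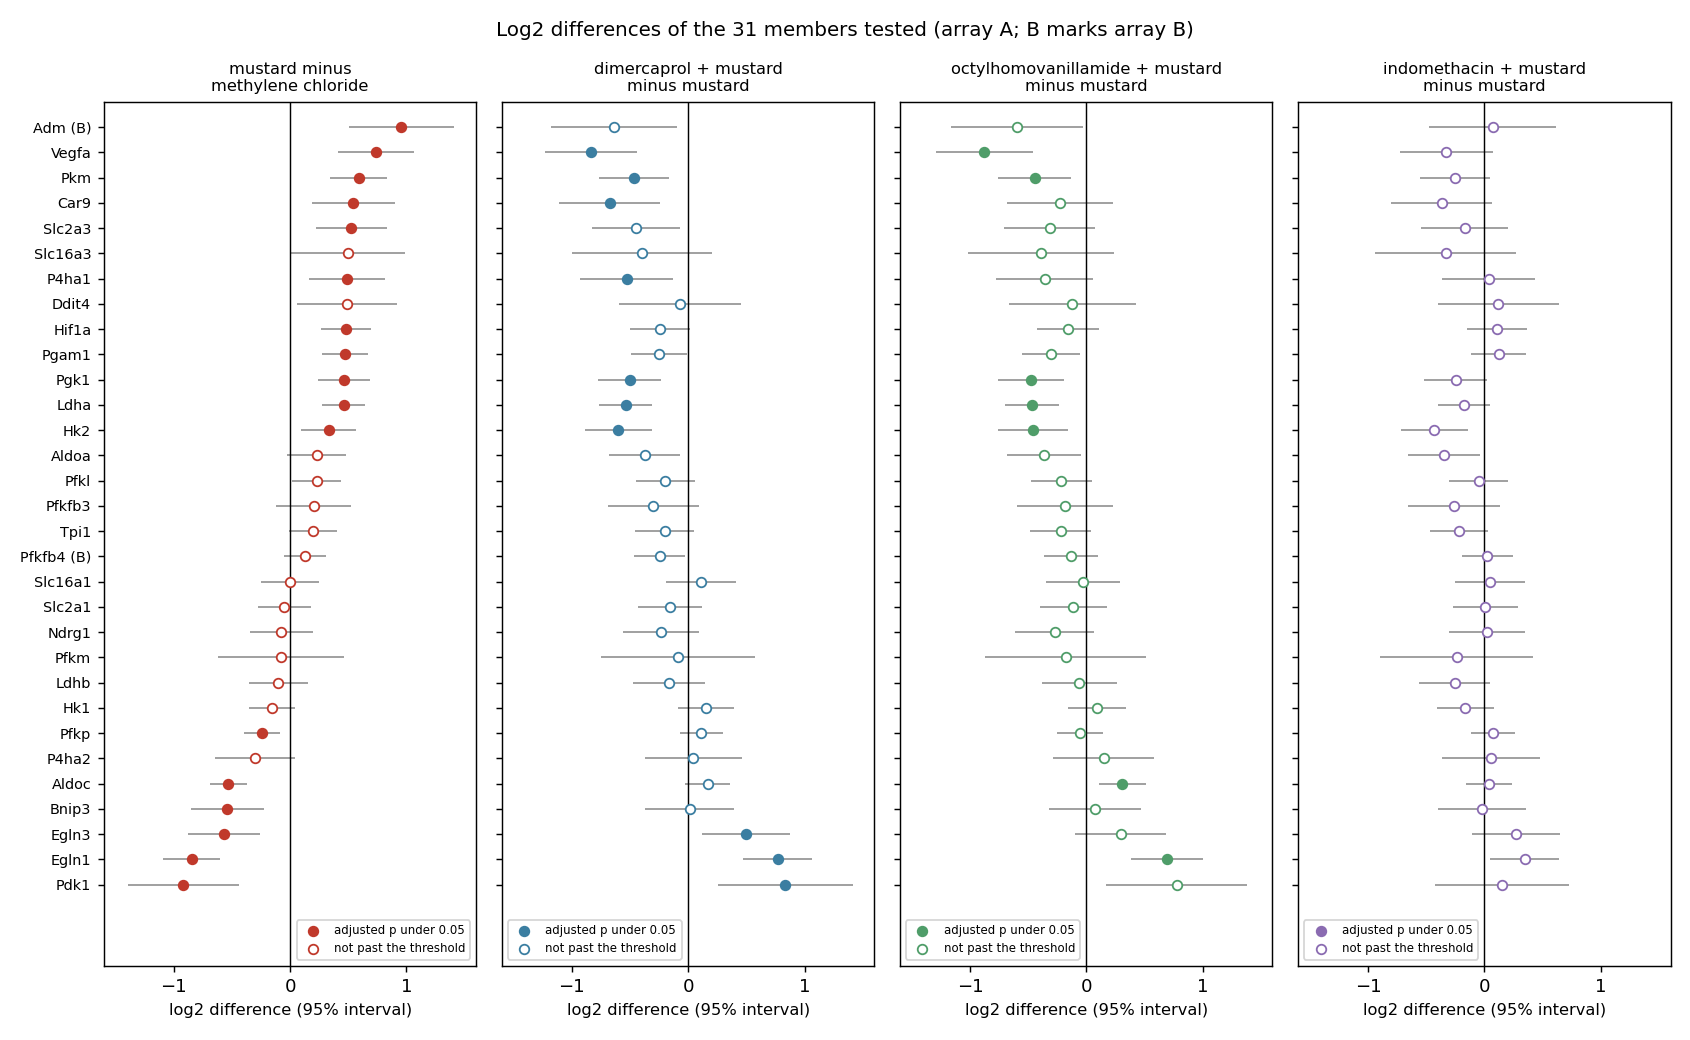
Log2 differences (points) with 95% intervals (lines) of the 31 genes tested, on scaled signals, for mustard against methylene chloride ears and for each pretreated group against mustard ears; filled points passed the threshold. The first panel holds 17 filled points, the dimercaprol panel 10, the indomethacin panel 0 and the octylhomovanillamide panel 7.

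The pretreated ears were also compared with methylene chloride ears, a set of controls shared with the first comparison. In dimercaprol ears limma called 0 of 29 array A genes higher (3 at an unadjusted p under 0.05) and 2 lower, beside 1.83% and 1.21% of all probe sets. Aldoc gave 482, 526 and 583 (lowest, median, highest) in dimercaprol ears, against 546, 693 and 831 in methylene chloride ears, and was lower by -0.36 ± 0.08 (adjusted p = 0.00277). Bnip3 gave 733, 1152 and 1273, against 1231, 1500 and 2536, a difference of -0.53 ± 0.15 (adjusted p = 0.0376). The groups overlapped for both genes. Bnip3 lost its call without any 1 of the ears of animals 8, 9, 10, 11 and 12. Neither passed with the ears paired by animal in complete pairs, at -0.26 for Aldoc and -0.51 for Bnip3. Ldha differed by -0.08 ± 0.09 and Vegfa by -0.10 ± 0.16.

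In octylhomovanillamide ears limma called 0 of 29 array A genes higher (1 at an unadjusted p under 0.05) and 1 lower, beside 1.82% and 0.948% of all array A probe sets. Pfkp gave 575 to 697, against 659 to 882 in methylene chloride ears, and was lower by -0.29 ± 0.08 (adjusted p = 0.0297). Paired by animal in complete pairs it gave -0.14 and did not pass, nor did it pass without the octylhomovanillamide ear of animal 27, 28 or 29. Ldha differed by -0.01 ± 0.09 and Egln1 by -0.15 ± 0.13.

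In indomethacin ears 7 of 29 array A genes rose and 6 fell, beside 16.3% and 19.7% of all probe sets, and on array B Adm rose (5.68% and 7.09% of that array). Pgam1 gave a lowest, median and highest of 1763, 1998 and 2134, all above the methylene chloride ears (974 to 1658). The difference was 0.60 ± 0.09 (6 and 21 ears; adjusted p = 1.98e-06). Aldoc gave 386, 496 and 517, all below the methylene chloride ears (546 to 831), with -0.49 ± 0.08 (adjusted p = 2.16e-06).

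Hif1a (2241, 2896 and 3641, against 1313, 1917 and 2332) was higher in indomethacin ears by 0.59 ± 0.10 (adjusted p = 9.85e-06), and Adm by 1.03 ± 0.21 (adjusted p = 0.000416). Ddit4, P4ha1, Vegfa, Pkm and Ldha were higher by 0.61, 0.53, 0.41, 0.33 and 0.29. Pdk1 (-0.77), Bnip3 (-0.56), Egln1 (-0.50), Ldhb (-0.36) and Hk1 (-0.32) were lower. Leaving out 1 indomethacin ear ended the calls of Vegfa (animal 16, 19 or 22), Pkm (21 or 22), Ldhb (16 or 19) and Hk1 (16). Paired by animal in complete pairs, 9 genes passed (2 rose, 7 fell), and no share of all probe sets is available here for that fit. Hif1a, Pgam1, Pdk1, Egln1, Bnip3 and Aldoc were still called, and Ddit4 turned to -0.39 (adjusted p = 0.0619).

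**Figure D4:**
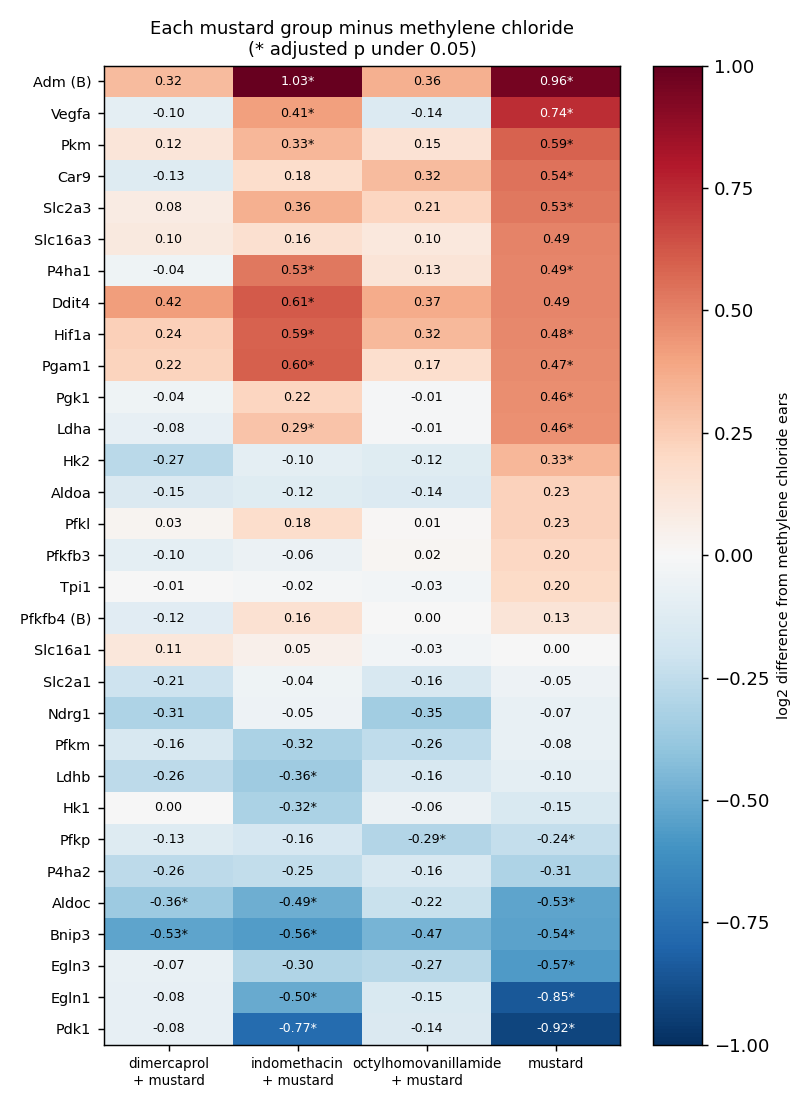
Log2 difference from methylene chloride ears on scaled signals (colour scale) of the 31 genes tested (rows) in the mustard, dimercaprol, indomethacin and octylhomovanillamide groups given mustard (columns); an asterisk marks an adjusted p under 0.05. There are 17 asterisks for mustard, 2 for dimercaprol, 14 for indomethacin and 1 for octylhomovanillamide.

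The pretreatments were compared directly, at doses and volumes that differ between drugs. In dimercaprol ears limma called 0 of 29 array A genes higher (3 at an unadjusted p under 0.05) and 2 lower than in indomethacin ears, beside 6.08% and 4.42% of all array A probe sets. Pgam1 (1320, 1525 and 1728 against 1763, 1998 and 2134) was lower by -0.38 ± 0.12 (6 and 6 ears; adjusted p = 0.0303), with all dimercaprol ears below all indomethacin ears. Ldha (4018, 5135 and 5932 against 4854, 6730 and 7525) was lower by -0.37 ± 0.11 (adjusted p = 0.0258), with overlap. Egln1 differed by 0.42 ± 0.15 (adjusted p = 0.0532). The count was 0 without the dimercaprol ear of animal 9 or the indomethacin ear of animal 16 or 22, 1 without dimercaprol animal 6 or indomethacin animal 19, and 5 without indomethacin animal 18 or 21.

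In octylhomovanillamide ears Pgam1 gave 1342 to 1654, below all 6 indomethacin ears (1763 to 2134), and was lower by -0.43 ± 0.12 (adjusted p = 0.0489). It was the 1 gene called of 29, with 0 higher (4 at an unadjusted p under 0.05), beside 1.19% and 0.898% of all probe sets. The call was lost without any 1 of the 5 octylhomovanillamide ears or of the indomethacin ears of animals 16, 17, 19, 21 and 22. Between dimercaprol and octylhomovanillamide ears limma called 0 of 29 array A genes, 0 also at an unadjusted p under 0.05, beside 0% of all probe sets in either direction.

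Muscle lies under ear skin and is rich in glycolytic enzymes, so the genes were set against 35 skeletal muscle genes. In mustard ears 1 of the 35 rose and 1 fell against methylene chloride ears, with a median difference of 0.07. Beside this stand 19.2% of all array A probe sets that rose and 23.7% that fell, and 12.9% and 13.2% on array B. The summed signal of the 33 on array A ran from 100436 to 168937 in mustard ears (median 150609), 61177 to 148960 in dimercaprol ears, 48592 to 143995 in indomethacin ears and 72769 to 212007 in octylhomovanillamide ears. Methylene chloride ears ran from 36559 to 203753 (median 140440) and so spanned nearly the whole range.

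Within the 21 methylene chloride ears, 8 of 31 genes correlated with the mean log2 signal of the muscle genes, all positively (permutation test with 1e+05 resamples, 2-sided, adjusted over the 31). The share of all probe sets that correlate with the muscle mean is not available here, so this count cannot be set beside one. The correlation was closest for Pfkm, the muscle phosphofructokinase (Pearson r = 0.97, Spearman rho = 0.93, adjusted permutation p = 6.2e-05 and 0.00031). The smallest permutation p possible was 1e-05 before adjustment. Aldoa (r = 0.87), Tpi1 (0.86), Pkm (0.84), P4ha2 (0.81) and Ldhb (0.72) followed. Ldha had r = 0.66 and rho = 0.55 (adjusted permutation p = 0.002 and 0.043), and Hk2 r = 0.56 and rho = 0.62 (0.025 and 0.014).

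Without the 2 ears farthest from the median muscle level, r was 0.95 for Pfkm, 0.82 for Pkm, 0.54 for Ldha and 0.48 for Hk2. With them left out 7 genes passed, while Ldha and Hk2 did not (adjusted permutation p = 0.063 and 0.12) and Bnip3 did at r = 0.71. Vegfa (r = 0.19), Egln1 (-0.04), Hif1a (-0.19), Pgam1 (-0.31) and Adm (-0.20) did not pass. The muscle mean had r = 0.04 with array brightness.

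With the muscle mean as a covariate, the difference between mustard and methylene chloride ears was 0.45 for Ldha, 0.56 for Pkm, 0.32 for Hk2 and 0.73 for Vegfa, and all 17 calls remained among 21 (14 rose, 7 fell). The dimercaprol count against mustard ears was then 9 and the octylhomovanillamide count 7. The share of all probe sets called with this covariate is not available here, so these counts cannot be set beside one. The dimercaprol ear of animal 9, with the lowest muscle sum of its group (61177), also had the lowest Pfkm, P4ha2, Slc16a3 and Bnip3 signals of that group.

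**Figure D5:**
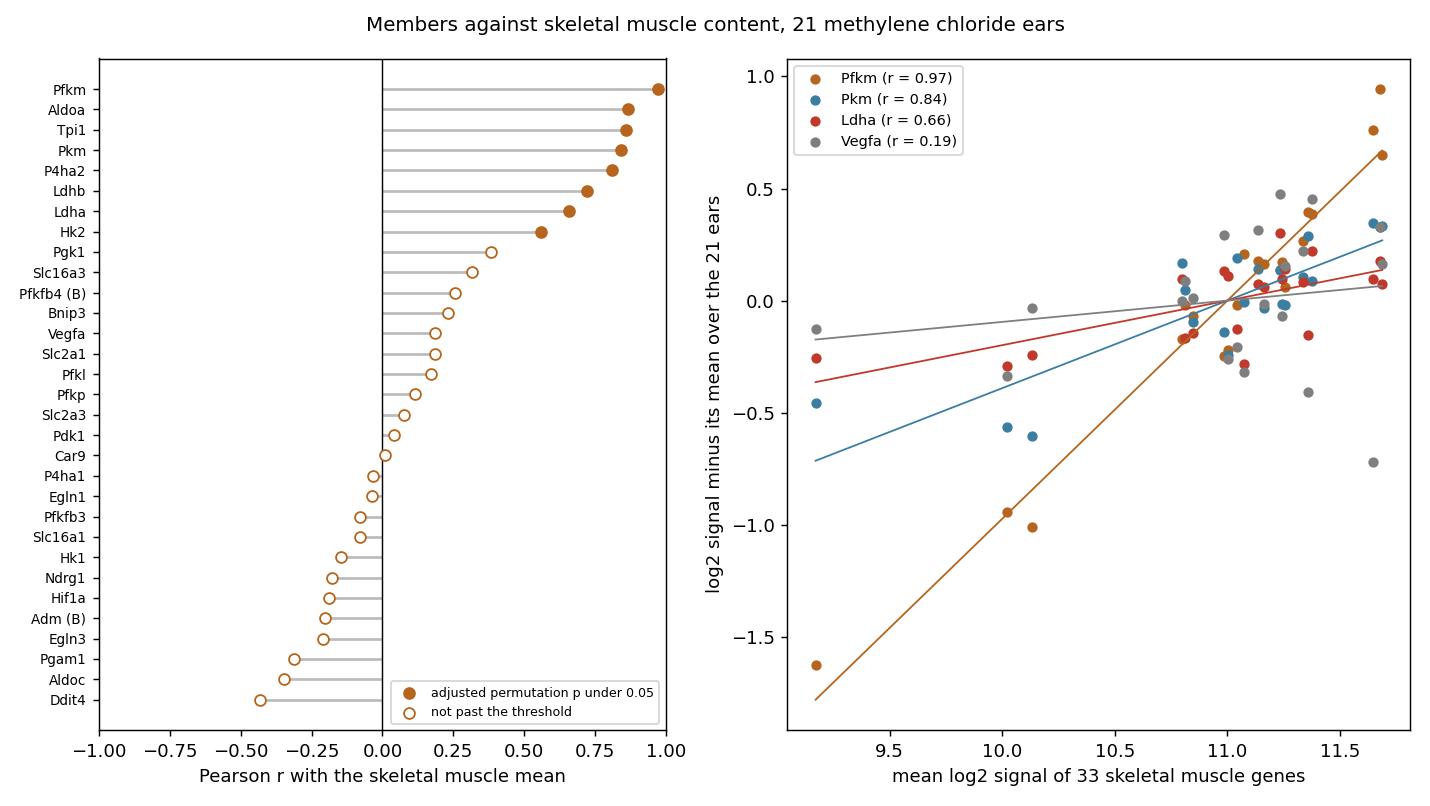
Left, Pearson r (horizontal axis) of each of 31 genes with the mean log2 signal of 33 skeletal muscle genes over 21 methylene chloride ears, filled where the adjusted permutation p is under 0.05. Right, log2 signal of example genes minus their mean (vertical axis) against the muscle mean (horizontal axis), 1 point per ear; Pfkm follows it most closely, at r = 0.97.

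In the animals without mustard, limma called 0 of 29 genes for dimercaprol, 0 for indomethacin and 0 for octylhomovanillamide alone against ethanol, beside 0% of all probe sets in each direction. At an unadjusted p under 0.05 there were 2, 4 and 1, and the 0% is no background for these, being at adjusted p. Ethanol against naive ears gave 0 as well, beside 0% of all probe sets, with 1 at an unadjusted p under 0.05. With 3 ethanol ears these comparisons have few samples. The right ears of the ethanol animals stand in the drug groups, and the ears were not paired in these tests.

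Methylene chloride ears were set against naive ears on array A, where the animal set and the solvent cannot be told apart. Here 2 of 29 genes were higher and 3 lower, beside 7.33% and 14.2% of all probe sets. Hif1a averaged 1919 ± 259 in methylene chloride ears (SD, n = 21) and 1178 ± 211 in naive ears (SD, n = 5 ears of 3 animals), a difference of 0.68 ± 0.16 (adjusted p = 0.00217). The monocarboxylate transporter Slc16a1 was higher by 0.49 ± 0.15 (adjusted p = 0.0137). Pfkl (-0.68 ± 0.13), Pfkfb3 (-0.57 ± 0.19) and Car9 (-0.70 ± 0.22) were lower in methylene chloride ears at adjusted p = 0.000179, 0.0291 and 0.0193. Pfkl gave 0.10 on its second probe set. Leaving out naive animal 501, 502 or 503 left 3, 1 and 2 genes called. Vegfa averaged 196 ± 43.2 in methylene chloride ears and 287 ± 55.5 in naive ears, a difference of -0.55 ± 0.22 that did not pass (adjusted p = 0.0701).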

How the data were processed

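Total RNA (10 µg) of each biopsy was hybridized once per array. The deposited values are probe set signal intensities on a linear scale, computed by the authors with MAS5 per the submitters' processing notes; its version and scaling are not given in the sources used here. Control probe sets (64 per array) were left out. Signals were multiplied by a factor per array that brought its 2% trimmed mean to 500, 16 was added, and the log2 was taken. Probe sets whose scaled signal averaged 100 or more were kept, 15925 of 22690 on array A and 17250 of 22575 on array B. An array has no counting depth, and precision is set by the number of ears.

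Linear models (limma 3.58.1, lmFit, and eBayes with trend, R 4.3.3, with the data.table package, version 1.17.8) were fitted per array on all kept probe sets: 1 for the ears given mustard and methylene chloride, 1 for the animals without mustard, and 1 over all array A ears for methylene chloride against naive. Naive ears of an animal were averaged. P-values were 2-sided, Benjamini-Hochberg adjusted, with a threshold of 0.05. The model script was tested on simulated data. Correlations, promoter searches and figures used Python 3.11.15, numpy 2.4.6, scipy 1.17.1, pandas 2.3.3 and matplotlib 3.10.9. For Adm and Pfkfb4 the muscle mean was that of the same ear on array A.

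Probe sets were named through the platform annotation where it gives 1 gene. All genes of the list could be named, and of the other glucose and hypoxia lists up to 4 rises and 4 falls per comparison with the smallest adjusted p. The genes and lists were chosen with earlier results of these data known. Left and right ears with the same number come from 1 animal: over 17 pairs, deviations from group means correlated at 0.165 on average on array A (-0.0954 to 0.441), against -0.0061 between animals, and at 0.068 on array B. Alternatives were no rescaling, quantile normalization, a pseudocount of 64, no filter or one at 300, another probe set per gene, no trend, only the groups compared, the animal as a fixed or random block, covariates for muscle, Gapdh ratio or array brightness, and leaving out ears.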

Additional observations from a re-analysis of the deposited data

Results flagged for a closer look

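Within groups of 4 to 10 ears, 15 of 240 gene and group combinations had 1 ear far from the others relative to the group's range; chance alone gives about 5 in 100. Among ears given mustard alone these were Adm in animal 36 (907.1, others 1709 to 1903) and Ldha in animal 5 (9471, others 6505 to 7349). The dimercaprol then mustard ear of animal 9 was low for Bnip3 (733.3), P4ha2 (91.42), Pfkm (1247) and Slc16a3 (90.2). After indomethacin and mustard, Aldoc was low in animal 16 (385.6) and Pfkp high in animal 21 (846.5). After octylhomovanillamide and mustard, Car9 was high in animal 27 (231.7) and Hk1 in animal 33 (1571). Without mustard, Car9 was high in octylhomovanillamide animal 517 (297.0), Vegfa low in octylhomovanillamide animal 519 (156.4), Hk2 high in dimercaprol animal 507 (1485), Ddit4 high in indomethacin animal 511 (6206) and Slc16a3 low in indomethacin animal 515 (210.6).

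Signals in ears given mustard differed between pretreatments by a direct test for Ldha (-0.37) and Pgam1 (-0.38) in dimercaprol against indomethacin ears. Pgam1 (-0.43) also differed in octylhomovanillamide against indomethacin ears. Of all array A probe sets, 4.42% and 0.898% fell in these comparisons. Leaving out each ear in turn ended the dimercaprol call in 4 of 12 cases for Ldha and 7 of 12 for Pgam1. The octylhomovanillamide call of Pgam1 ended in 10 of 11 cases. Whether the response to mustard itself differed between the drugs was not tested.

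Among probe sets not chosen for a gene, 4 differed between mustard and methylene chloride ears while the chosen one did not pass: those of Aldoa on array A (0.51) and array B (0.22), of Hk1 (-0.97) and of Ndrg1 (-0.83).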

How the results depend on the processing

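Counts are genes called of 31 (29 without array B), and the cause of each change below was not tested. Mustard against methylene chloride (17) gave 9 with the Gapdh ratio and 10 with brightness as a covariate, 10 without the mustard ears of animals 5 and 37, 10 with the fixed replicate block of complete pairs (fewer ears) and 15 to 18 with each ear left out. Dimercaprol against mustard (10) gave 4, 0 and 3 with the Gapdh ratio, with brightness and without those ears, 20 without rescaling and 5 to 13 with each ear left out. Octylhomovanillamide against mustard (7) gave 0 with the Gapdh ratio, with brightness, with the 2 groups alone and without those ears, 3 after quantile normalization, 13 without rescaling and 3 to 9 with each ear left out. Indomethacin against mustard (0) gave 8 without rescaling and 0 to 1 with each ear left out. Against methylene chloride, dimercaprol (2) gave 1 with brightness, no filter or the fixed block, 5 with the second probe set, 0 without rescaling and 1 to 2 with each ear left out; indomethacin (14) gave 9 with the fixed block, 6 without rescaling and 12 to 15; octylhomovanillamide (1) gave 0 with the fixed block, 0 without rescaling and 0 to 2. Dimercaprol against indomethacin (2) gave 1 with brightness, the 2 groups alone or quantile normalization, 4 with the filter at 300 and 0 to 5. Octylhomovanillamide against indomethacin (1) gave 0 with the Gapdh ratio, brightness, no trend, no filter, the 2 groups alone, quantile normalization or no rescaling, and 0 to 1. Methylene chloride against naive (5) gave 3 with the filter at 300 or quantile normalization, 2 without rescaling and 1 to 3. The other 5 comparisons gave 0 throughout. The random replicate block changed no count by over 1.5 times. Muscle correlations (8) gave 7 without 2 ears and 8 after quantile normalization.

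Without rescaling, these signs turned. Against methylene chloride, mustard ears gave -0.030 for Car9, -0.15 for Hif1a, -0.28 for Hk2, -0.17 for Ldha, -0.079 for P4ha1, -0.15 for Pgam1, -0.17 for Pgk1, -0.043 for Pkm and -0.046 for Slc2a3. Against mustard ears, dimercaprol gave 0.12 for Car9, 0.29 for Hk2, 0.37 for Ldha, 0.27 for P4ha1, 0.41 for Pgk1, 0.44 for Pkm and 0.017 for Vegfa, and octylhomovanillamide 0.26 for Hk2, 0.27 for Ldha, 0.26 for Pgk1 and 0.29 for Pkm. The second probe set turned Egln1 to -0.24 (dimercaprol against mustard) and Pfkl to 0.10 (methylene chloride against naive), and the fixed block Ddit4 to -0.39 (indomethacin against methylene chloride). Calls were lost without 1 mustard ear for Bnip3 (animal 1), Car9 (37), Hk2 (5 or 37), P4ha1 (1 or 5) and Pfkp (3) against methylene chloride. Dim genes such as Car9 and Vegfa lie nearest to background, where signals are least precise.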
